A study of Mus musculus with 6 samples.

Results

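The zinc finger homeobox genes Zfhx2, Zfhx3, Zfhx4, Zeb1 and Zeb2 carried 61 regions of FLAG-Onecut3 signal inside the genes or within 100 kb of them. Of these regions, 13 had a peak in every one of 3 ChIP-Seq replicates and are called shared. The 5 genes, of 21887 protein-coding genes in the RefSeq table of GRCm38.p6, were selected on the peaks of these same lists together with their names. Their counts and folds are therefore given as a description, without a test. The cells were p53 KO mouse embryonic fibroblasts (MEFs) of strain C57BL/6, and every library of the series shares this p53 knockout. In ONECUT3-OE cells FLAG-tagged Onecut3 was expressed ectopically from a retroviral Tet-One vector, switched on with doxycycline (100 ng/mL). The 3 ONECUT3-OE libraries precipitated with anti-FLAG M2 have the peak lists used here. A control anti-FLAG library without doxycycline, an IgG library and an input library, 1 of each and the last pair from ONECUT3-OE cells, were not analysed here. Signal that the antibody gives without Onecut3 was therefore not subtracted. Peak lists hold no expression, so the fibroblast label could not be checked against marker genes.

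Onecut3 is a transcription factor with a CUT domain and a homeodomain, known for roles in neurons and in endodermal organs. Homeobox genes encode transcription factors that bind DNA through a homeodomain, and the zinc finger class joins homeodomains to zinc fingers in 1 protein. Zeb1 and Zeb2 bind E-boxes and repress E-cadherin and other epithelial genes in epithelial-mesenchymal transition (EMT), the change by which epithelial cells become motile, and both are typical of mesenchymal cells such as fibroblasts. Zfhx2, Zfhx3 and Zfhx4 encode very large proteins with several homeodomains and are known mainly for roles in neurons. Zfhx3, also called Atbf1, additionally acts in circadian timing and as a tumor suppressor.

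ONECUT3-OE cells had their strongest FLAG signal at these genes over the promoter of Zfhx2, where all 3 replicates had a peak. The shared region ran from 55091755 to 55092624 on chromosome 14 of GRCm38 and covered the RefSeq transcription start (TSS) of Zfhx2 at 55092048 on the minus strand. The fold over the control is the ChIP pileup at the summit over the background that MACS2 expected. By the peak names this control is the input, not the anti-FLAG library without doxycycline. At the Zfhx2 promoter the fold reached 12.6, 15.4 and 12.8 in replicates 1, 2 and 3, a mean of 13.6 ± 1.58 (SD, n = 3). The lists differ in median fold (3.03, 3.79 and 3.18), so this SD may also hold differences between lists. By fold the Zfhx2 promoter peaks were number 5, 2 and 3 of their lists, so all 3 replicates placed the region among their strongest. By mean rank of fold this region was number 2 of the 5114 shared regions of the series. It was number 1 of the 351 shared regions that reached a RefSeq promoter window, defined as 250 bases before to 50 bases after a TSS. Shared regions reached 1.32% of 32851 such windows, and 1 of the 6 that the table gives for these genes. The promoter window of Zfhx2 is shown because all of its 300 bases lay under the strongest region of the gene group. It is the RefSeq sequence of GRCm38.p6 at chr14:55091999-55092298 on the minus strand, written 5′ to 3′, with capitals at ATTGAT in either orientation, the core letters of ONECUT binding sites.

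Zfhx2 promoter: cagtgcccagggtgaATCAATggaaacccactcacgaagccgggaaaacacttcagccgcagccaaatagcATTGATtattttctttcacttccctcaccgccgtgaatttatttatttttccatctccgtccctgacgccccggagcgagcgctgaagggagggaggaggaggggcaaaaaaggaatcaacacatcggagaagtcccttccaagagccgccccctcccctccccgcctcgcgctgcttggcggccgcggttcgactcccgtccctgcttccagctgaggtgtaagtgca

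The Zfhx2 window held 2 matches to ATTGAT, at 235 to 230 and 179 to 174 bases upstream of the TSS. The first was read as ATCAAT, the same letters on the other strand. ATTGAT was searched on both strands, as was ATCGAT, which reads the same on both, and no searched motif overlapped either match. At least 1 ATTGAT was held by 7.54% of all 32851 promoter windows and by 27.1% of the 432 windows that a shared region reached. At least 2 were held by 0.694% of all windows and by 5 of the 432 (1.16%), the Zfhx2 window included. ATCGAT was held by 0.925% of all windows and by 11.3% of those reached, but not by the window of Zfhx2. Windows of alternative starts of a gene can overlap, so they are not independent, and a match of letters is not a measured site.

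**Figure D1:**
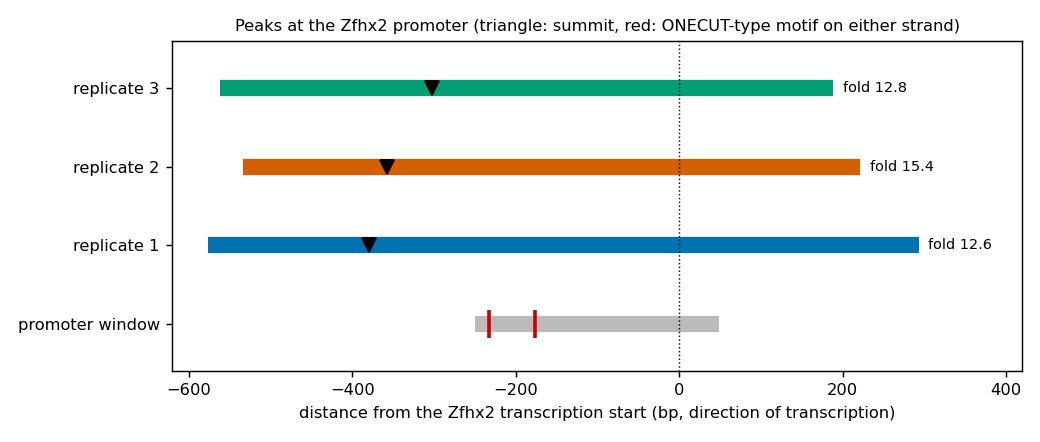
Peaks of the 3 FLAG replicates at the Zfhx2 promoter, with distance from the transcription start in bp on the x axis (negative is upstream) and 1 bar per replicate from peak start to peak end. Triangles mark the summits, 380, 358 and 302 bp upstream in replicates 1, 2 and 3, the gray bar is the RefSeq promoter window and the red marks are its 2 ATTGAT matches, so all 3 summits lie upstream of the window.

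The 3 summits at Zfhx2 lay within 78 bp of each other, 380, 358 and 302 bp upstream of the TSS in replicates 1, 2 and 3. They were 52 to 130 bp beyond the upstream edge of the printed window, so the bases under the summits were not read here. The mean summit position, 55092395, fell just beyond the upper end of the gene at 55092381, which lies upstream of the TSS in the table. The closest pair of a summit and an ATTGAT match was 70 bp apart. At 870 bp the region was more than the median width of shared regions, 393.5 bp, and only 60 of 5114 were wider. The pileup under the peak was 46 fragments in replicate 1 and 44 in replicate 3, with expected backgrounds of 2.73 and 2.51. At the other 12 shared regions of these genes it was 8 to 20 fragments in replicate 1 and 8 to 18 in replicate 3. Pileups could not be solved for replicate 2.

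The remaining signal around Zfhx2 (gene ID 239102, 32.1 kb), a gene expressed mainly in the nervous system, did not recur in every replicate. A region from 55097629 to 55098013, 5.25 kb beyond the 5′ end and inside Thtpa, which encodes thiamine triphosphatase, had folds of 5.15 in replicate 1 and 6.96 in replicate 2 and no peak in replicate 3. A region from 55116204 to 55116501, inside Jph4, which encodes the junctional membrane protein junctophilin 4, had folds of 3.62 in replicate 2 and 5.09 in replicate 3 and no peak in replicate 1. Both therefore failed the rule for shared regions by a single replicate, and shared regions at Zfhx2 numbered 2 without replicate 1 and 2 without replicate 3, against 1 with all lists. The q-value given with a peak is its MACS2 p-value adjusted within the list. In replicate 1 only, a peak lay within the gene at 2.42 (q = 1.00) and another 8.57 kb below its lower-coordinate end at 4.54 (q = 0.000257). At the promoter of Ngdn, which encodes neuroguidin, a single peak of replicate 3 reached 2.57 (q = 0.534).

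Zfhx3 (gene ID 11906) had the most shared regions of the 5 genes. All 7 were inside the gene, which spans 682.3 kb on chromosome 8 from 108279311 to 108961636, and none reached its RefSeq promoter window at TSS 108714644. Only 2 of the 21887 protein-coding genes had more shared regions inside. Among 227 genes that span at least 500 kb, 138 had a shared region inside and 5, Zfhx3 included, had 7 or more. Per Mb of gene, Zfhx3 had 10.3 shared regions, against 2.40 over all 4945 genes that span at least 50 kb, pooled. The gene has 1 TSS in the promoter table, and its span begins far upstream of that TSS, so 3 of the 7 shared regions were upstream and 4 downstream of it. The 7 stretched over 371.3 kb with gaps of 18.8 to 149.7 kb between neighbors.

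The folds at Zfhx3 were moderate, between 2.87 and 5.20, and the 3 replicates gave different orders of the 7 regions. The region from 108556587 to 108556985, which also lies in the long noncoding RNA gene Lncbate1, had folds of 3.85, 5.20 and 5.01 in replicates 1, 2 and 3. It was number 1366 of the 5114 shared regions by mean rank of fold, the highest of the 7. At 75.9 kb downstream of the TSS, the region from 108790172 to 108790781 had folds of 4.54, 4.63 and 3.99, and its summits were 253 bp apart. At 131.8 kb downstream, the region from 108846044 to 108846802 had folds of 4.55, 4.11 and 3.91. These 3 regions and the next one had q of at most 0.05 in every replicate.

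That region, from 108706680 to 108707072, was the closest of the 7 to the TSS, at position -7.84 kb from it, with folds of 5.08, 3.35 and 3.66. Right beside it, from 108705814 to 108706566, was a region of replicates 2 and 3 only, with folds of 3.29 and 5.06. The remaining 3 shared regions had q above 0.05 in at least 1 list. The region from 108537504 to 108537770, in the noncoding gene Gm39244, had folds of 3.33 (q = 0.0673), 4.46 (q = 0.000502) and 2.87 (q = 0.404). The region from 108908463 to 108908764 had folds of 3.21 (q = 0.0673), 3.63 (q = 0.0120) and 3.95 (q = 0.00301). The region from 108767343 to 108767761 had folds of 3.02, 3.67 and 2.99, and it was number 4655 of 5114. At these last 2 regions every list was below its median over shared regions. With q of at most 0.05 required in each list, the shared regions at Zfhx3 fell from 7 to 4, and with a fold of at least 5 none was left.

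Zfhx3 also held 6 regions with peaks in 2 lists and 16 with a peak in 1 list. Their folds ran from 2.55 to 5.06 and from 2.28 to 4.22. Of these 22 regions, 18 were inside the gene and 4 lay between its upper-coordinate end and 100 kb beyond it. The highest single-list peak, from 108895629 to 108896033 in replicate 1, had a fold of 4.22 (q = 0.00120).

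**Figure D2:**
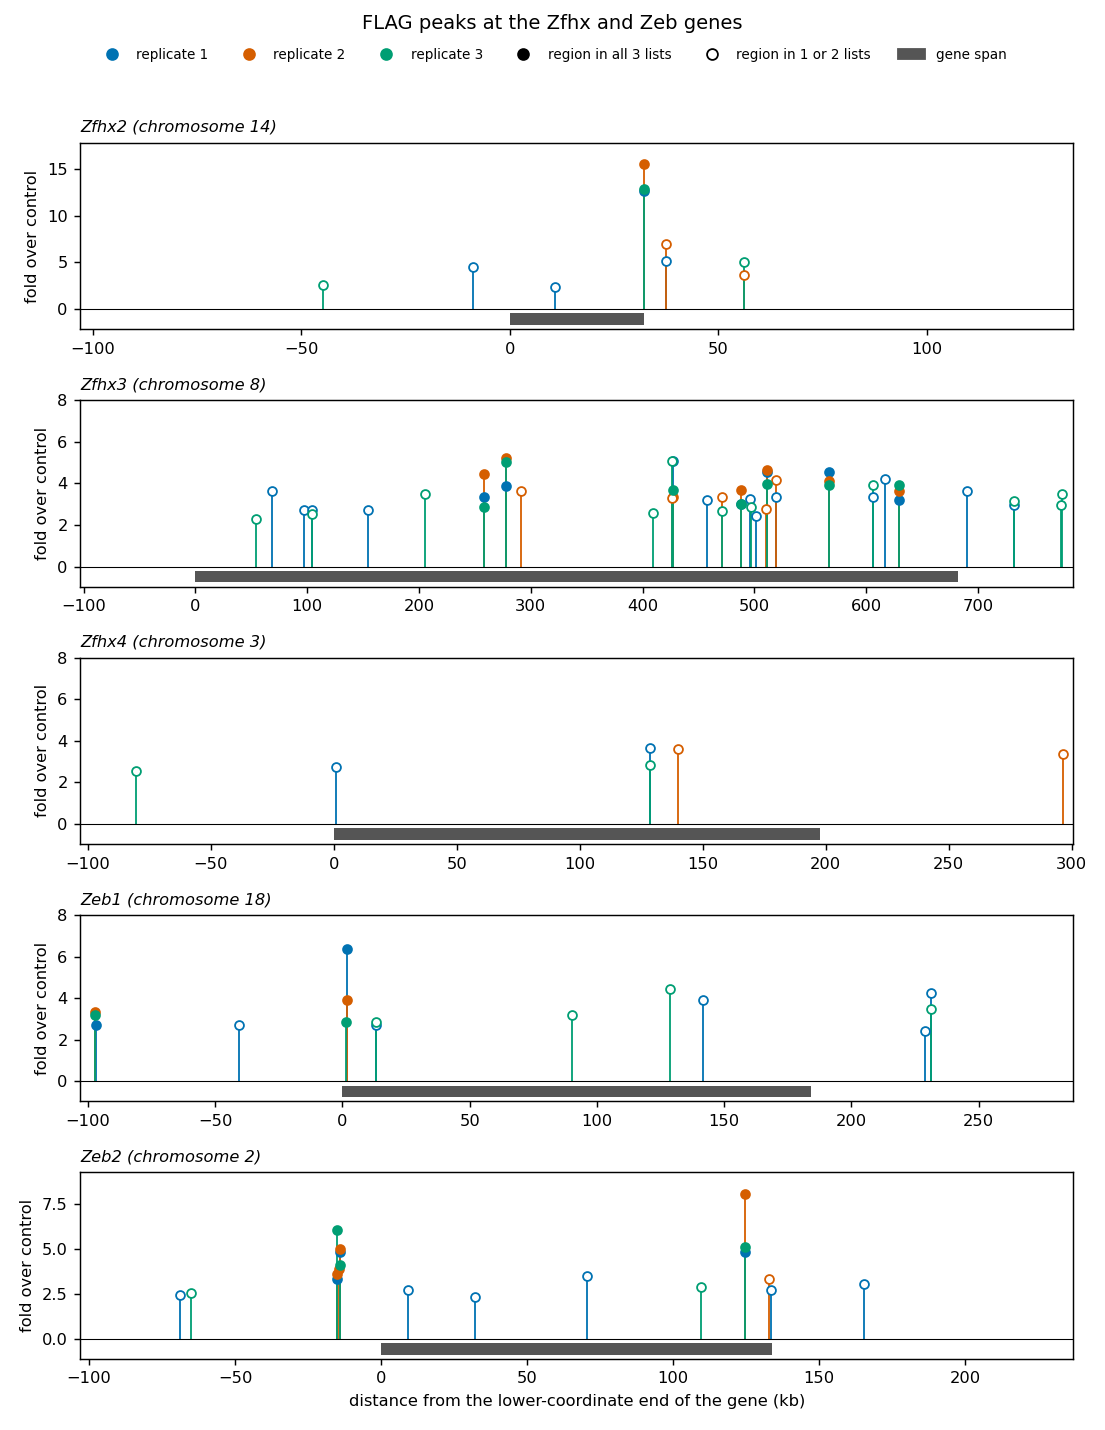
Every FLAG peak inside the 5 genes or within 100 kb of them, in 1 panel per gene, with distance from the lower-coordinate end of the gene in kb along the x axis and the deposited fold along the y axis (scales differ between panels). Each line stands at a summit, filled circles are peaks of regions in all 3 lists, open circles those of regions in 1 or 2 lists, and the gray bar is the gene; Zfhx2 has 1 tall group of filled circles at its upper end, Zfhx3 has 7 lower groups inside the gene, and Zfhx4 has none.

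Zeb2 (gene ID 24136), a repressor of E-cadherin that also acts in neural crest development, had 3 shared regions. One was inside the gene near its promoters and the others were a close pair beyond its 3′ end. Zeb2 spans 133.9 kb on chromosome 2 from 44983512 to 45117442 on the minus strand, and the promoter table gives 4 starts for it. The region inside ran from 45107725 to 45108243, 2.25 kb downstream of the innermost TSS at 45110277. Its folds were 4.84, 8.07 and 5.09 in replicates 1, 2 and 3, with q of 5.10e-05, 9.06e-15 and 2.42e-05. All 3 were above the median of shared regions in their lists, and by mean rank it was number 490 of 5114. By mean rank it came next after the promoter of Zfhx2 among the shared regions of the 5 genes. By fold within replicates 1 and 3, other regions of these genes also stood above it, up to 6.36 and 6.05.

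The regions of the pair beyond the 3′ end of Zeb2 were 117 bp apart, the farther one 14.8 kb from the gene. The region from 44968337 to 44968680 had folds of 3.33 (q = 0.0673), 3.62 (q = 0.0356) and 6.05 (q = 1.00e-07), so that replicate 3 stood apart from the other two. The region from 44968798 to 44969527 had folds of 4.84, 5.01 and 4.14, with a further peak of replicate 2 at 3.90. No gene of the RefSeq table covered either region. None of the 4 Zeb2 promoter windows had a peak in any list. Close to the TSS at 45117442 there were single-list peaks 1.16 kb downstream in replicate 2, with a fold of 3.35 (q = 0.122), and 0.445 kb downstream in replicate 1, with 2.73 (q = 0.521). Of the 9 regions in 1 list, 2 lay in the neighbor Gtdc1, a glycosyltransferase-like gene, and 1 in Gm28643. Within 10 kb of the gene only the region inside it was left, and with a fold of at least 5 in every list none was.

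Zeb1 (gene ID 21417), which encodes the other EMT repressor of the pair, had 2 shared regions, and both depended on the settings. The gene spans 184.1 kb on chromosome 18 from 5591327 to 5775468. The region inside, from 5592744 to 5593043, lay 1.54 kb from the lower-coordinate end, and its folds in replicates 1, 2 and 3 were 6.36 (q = 5.63e-09), 3.90 (q = 0.00939) and 2.85 (q = 0.330). The ratio between the highest and the lowest replicate was the widest of the 13 regions, and the summits were 180 bp apart. The region from 5493904 to 5494619, in the noncoding gene Gm10125 and 96.7 kb from Zeb1, had folds of 2.73, 3.35 and 3.18, with q above 0.05 in every list. It was number 4828 of 5114. Its peaks of replicates 1 and 3 did not overlap each other and were joined only through the peak of replicate 2. The summits there were 391 bp apart. Shared regions at Zeb1 numbered 0 with q of at most 0.05 in each list, 0 with summits within 100 bp and 1 with a flank of 50 kb.

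Zeb1 also had 2 regions with peaks in replicates 1 and 3. The one from 5822618 to 5822855, 47.2 kb above the gene, had folds of 4.24 (q = 0.00120) and 3.50 (q = 0.0430). Regions in 1 list numbered 5, with folds from 2.42 to 4.46. Replicate 2 held 2 of the 15 peaks at Zeb1, both in shared regions.

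Zfhx4 (gene ID 80892), a large zinc finger and homeodomain factor related to Zfhx3, had no shared region. The gene spans 197.6 kb on chromosome 3 from 5218218 to 5415861, and each list had 2 peaks inside it or within 100 kb. These 6 peaks formed 5 regions. The only one with peaks in more than 1 list, from 5346627 to 5347002 inside the gene, had folds of 3.63 in replicate 1 (q = 0.0201) and 2.85 in replicate 3 (q = 0.330). Without replicate 2 it counted as shared. The others had folds of 2.55 to 3.62, and the strongest of them was a peak of replicate 2 inside the gene, from 5358038 to 5358233 (q = 0.0356). Of the single-list regions 1 also lay in 2700069I18Rik and 1 in 4930555M17Rik. At the edge of the 100 kb window, replicate 2 had a peak 98.9 kb from Zfhx4 with a fold of 3.35, while the closest region left out was a peak of replicate 1 at 101.5 kb from Zfhx3 with a fold of 2.12.

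**Figure D3:**
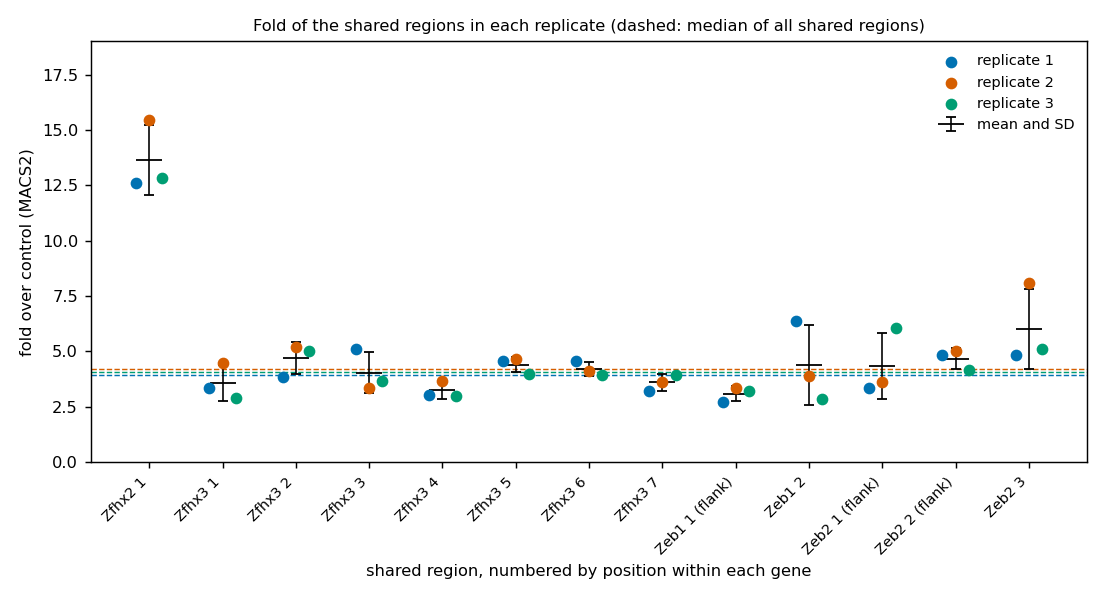
Fold over the control, the input by the peak names, in each replicate at the 13 shared regions of the 4 genes that have any. Regions are numbered by position on the x axis, with 1 point per replicate and the mean and SD of the 3 replicates. Dashed lines are the medians of all 5114 shared regions, 3.94, 4.18 and 4.05 in replicates 1, 2 and 3; the Zfhx2 region stands at 12.6 to 15.4 and the other 12 lie between 2.73 and 8.07.

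By their medians, the 13 shared regions of the 5 genes had folds near those of shared regions in general. The Zfhx2 promoter, number 2 of 5114 by mean rank, and the Zeb2 region inside the gene, number 490, stood higher. The nearer Zeb2 region beyond the 3′ end, number 1280, was also above the median in every list. Replicates 1, 2 and 3 gave medians of 4.54, 4.11 and 3.95 over all 13, beside 3.94, 4.18 and 4.05 over all 5114 shared regions. Of the 13, 6, 7 and 8 were below those medians. In 10 of the 13 the summits of the 3 lists were within 100 bp of each other. Every replicate had q of at most 0.05 at 7 regions, 2 replicates at 3, 1 replicate at 2 and none at the distal Zeb1 region. Of the 61 regions, 37 were in 1 list, 11 in 2 and 13 in all 3, or 21.3%. Over all 50844 regions of the series 10.1% were in all 3, and nothing is read from this difference, since these genes were chosen by their peaks. Replicate 1 had 41 of the 99 peaks, replicate 2 had 24 and replicate 3 had 34, in the same order as the lengths of the lists (31600, 12856 and 24822 peaks). The lists do not give depth, so a missing peak is not evidence that Onecut3 was absent.

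Of the 5 genes, 4 had a shared region with any base inside the gene. The same was true of 9.53% of all protein-coding genes and of 25.8% of the 4945 that span at least 50 kb. At Zfhx2 the region crossed the gene end, and its mean summit lay just beyond that end. Inside or within 100 kb, again 4 of 5 had one, against 40.6% of all protein-coding genes and 50.1% of those of at least 50 kb. The median number was 2, against 0 and 1. Long genes hold more regions, and 4 of the 5 genes span over 100 kb, so the comparison with genes of at least 50 kb is the closer one. Nothing is read from these shares either, since the genes were chosen with their regions known. By peaks per Mb, Zfhx4 was the lowest of the 5, with 5.03 in each list. Zeb2 was the highest in replicates 1 and 2, with 27.0 and 15.0, and Zfhx3 in replicate 3, with 20.4. The medians over all protein-coding genes were 11.8, 4.62 and 9.30 in replicates 1, 2 and 3.

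**Figure D4:**
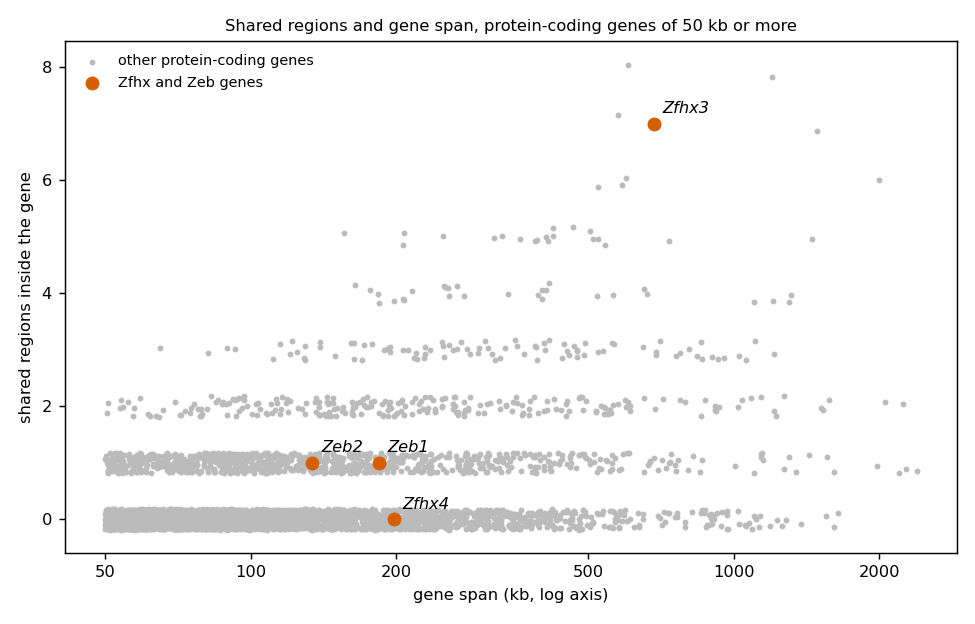
Shared regions inside the gene on the y axis against gene span in kb on a log x axis, for the 4945 protein-coding genes that span at least 50 kb, with gray points spread slightly along the y axis so that they can be seen. Orange points are the 4 of the 5 Zfhx and Zeb genes that are this long, with Zfhx3 at 7 shared regions, Zeb1 and Zeb2 at 1 each and Zfhx4 at 0.

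For each gene the protein-coding gene with the most similar peaks per Mb in the 3 lists, by Euclidean distance over these 3 values and outside its own window, was named. It was Zbtb37 for Zfhx2 (distance 0.0185 peaks per Mb), Prickle2 for Zfhx3 (1.13), Aym1 for Zfhx4 (0.0741), Slc44a1 for Zeb1 (0.132) and Ttll8 for Zeb2 (0.583). Prickle2, a planar cell polarity gene of 335.4 kb, had 20.5, 13.1 and 20.5 peaks per Mb, beside 21.5, 13.6 and 20.4 at Zfhx3, and 3 shared regions in its window. These values rest on whole numbers of peaks in 3 lists, and how many other genes came close was not counted.

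The other 9 genes of the zinc finger homeobox class, Adnp, Adnp2, Homez, Tshz1 to Tshz3 and Zhx1 to Zhx3, had shares close to those of protein-coding genes in general. A shared region inside or within 100 kb was present at 4 of 9 (44.4%), beside 40.6% of all protein-coding genes, with a median of 0 in both. One lay inside the gene at 1 of 9, beside 9.53% of all. That gene was Tshz2, a teashirt family repressor of 440.2 kb, with 3 shared regions inside and 1 in its flank. The strongest by mean rank, 169654938 to 169655441 on chromosome 2, had folds of 4.84, 4.18 and 5.09, close to those at Zfhx3. Tshz1, Tshz3 and Zhx1 had 1 each in their flanks. The region at Tshz3, 1.06 kb beyond a gene end (36696569 to 36697058 on chromosome 7), had folds of 5.90, 2.90 and 4.56. Adnp, Adnp2, Homez, Zhx2 and Zhx3 had none.

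Of 28 protein-coding genes of the EMT pathway around Zeb1 and Zeb2, 8 (28.6%) had a shared region inside or within 100 kb, beside 40.6% of all protein-coding genes, with a median of 0 in both. Only Cdh1, which encodes E-cadherin, the best known target that ZEB factors repress, had one inside, which is 1 of 28 beside 9.53% of all. It lay between 106640893 and 106641253 on chromosome 8, reached folds of 8.78, 6.96 and 6.05, and was number 112 of 5114 shared regions. Cdh1 had 2 more in its flanks. Snai3, a Snail family repressor, had 4, all at least 10.5 kb from the gene, with folds of 2.53 to 5.14. Esrp2, an epithelial splicing regulator, had 2, and the nearer, 12.8 kb away, had folds of 7.79, 6.54 and 6.99. It was number 102 of 5114, ahead of the region inside Cdh1. Tgfb3, a TGF-β ligand, had 2, at 2.12 and 3.72 kb from a gene end, and the stronger had folds of 7.27, 3.90 and 6.37. Snai2, Tgfb2, Smad3 and Vim had 1 each.

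No shared region lay inside or within 100 kb of the remaining 20 EMT genes, which include the EMT inducers Snai1, Twist1 and Twist2, the ZEB corepressors Ctbp1 and Ctbp2, and the ZEB antagonists Grhl2, Ovol1 and Ovol2. ZEB factors bind the E-box CACCTG, which was searched on both strands. It was in none of the 6 promoter windows of Zfhx2, Zfhx3 and Zeb2, while 20.2% of all windows and 12.0% of those reached by a shared region held it. Of these 6 windows 4 are of Zeb2, some of them overlapping, and Zeb1 and Zfhx4 have no window. They are too few to compare.

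Of the 6 microRNA genes that silence Zeb1 and Zeb2, 3 had a shared region within 100 kb, as did 40.6% of protein-coding genes. The 6 lie at 3 loci, too few to compare. Mir200c and Mir141, which lie next to each other on chromosome 6, had the same 3 shared regions, Mir205 on chromosome 1 had 3, and Mir200a, Mir200b and Mir429 on chromosome 4 had none. The mature RefSeq sequences (GRCm38.p6) of the arms best known to target ZEB transcripts are shown for the 3 genes with shared regions, with the seed, bases 2 to 8, in capitals.
miR-200c-3p: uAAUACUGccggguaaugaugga
miR-141-3p: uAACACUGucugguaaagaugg
miR-205-5p: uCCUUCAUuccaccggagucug

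No 2 of these share a seed. Of the 3 regions near Mir200c and Mir141, the strongest, from 124805790 to 124806304, had folds of 6.66, 7.08 and 6.05 and was number 157 of 5114. It lay 87.4 kb from Mir200c, and the nearest, 22.0 kb away, had folds of 3.07, 2.90 and 2.53. At Mir205 the nearest lay 35.7 kb away, from 193543273 to 193543593, with folds of 2.80, 4.46 and 3.99. None of these regions was within 20 kb of a microRNA gene, and the windows also hold other genes.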

How the data were processed

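ChIP-Seq peak lists of the 3 ONECUT3-OE anti-FLAG replicates were used, 1 list per library. Groups and replicate numbers came from the sample titles. Tools listed without roles in the submitters' processing notes are MACS2 2.1.0, Bowtie2 2.2.6 and deepTools 3.3.2, with build GRCm38. How reads were filtered is not given in the sources used here. By the peak names each library was called on its own against the input. For each peak the lists deposited by the authors give a fold (a ratio of pileup to expected background, 1 added to both), the −log10 of p and of q, and a score derived from p. Fold depends on depth, which is unknown, so folds were ranked only within a list. Means and SDs of folds over the 3 lists may therefore also hold differences between lists.

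Peaks overlapping by at least 1 bp were merged, and a region with all 3 lists was called shared. Peaks can be joined through another peak, so not every pair in a region has to overlap. In lists 1 and 3 the whole-number pileup was solved from fold and p, within 0.001 in −log10 p. Genes came from the RefSeq table of GRCm38.p6, which has no strand or exons; TSSs, strands and sequences came from the RefSeq promoter table (6 windows for Zfhx2, Zfhx3 and Zeb2), and no genome sequence was used. Genes named by rule are the 5 genes, up to 4 genes per list with the most shared regions, neighbors that hold a region, and the most similar genes. Other list members are named outside the rule, after their values were seen, only to say how many shared regions they had. The genes, lists and motifs were chosen with earlier results of these data known. No test was made. Nothing says whether replicates were separate cultures, so their spread may be technical. Scripts were tested on simulated peaks. Alternatives were q of at most 0.05, fold of at least 5, overlap of 50% of both peaks, summits within 100 bp, flanks of 50 and 10 kb, and leaving out each replicate. Software was Python 3.11.15 with scipy 1.17.1, pandas 2.3.3, matplotlib 3.10.9 and numpy 2.4.6.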

Additional observations from a re-analysis of the deposited data

How the results depend on the processing

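Shared regions at the 5 genes numbered 13, and 10 of them had any base inside a gene. They fell to 7 and 6 with q of at most 0.05 in every list, and to 1 and 1 with a fold of at least 5, where only the Zfhx2 promoter was left. By construction both alternatives use fewer peaks. With 50% overlap of both peaks they were 10 and 9, and with summits within 100 bp 10 and 8. Leaving out 1 replicate gave 15 to 18 at the genes and 11 to 14 inside, since fewer lists have to share a region. With flanks of 50 and 10 kb there were 12 and 10. Protein-coding genes with a shared region inside or within 100 kb numbered 8895, against 1536 with a fold of at least 5, 3123 with a flank of 10 kb and 10363 to 12388 with 1 replicate left out. Of 45 values for single genes, 13 moved by over 1.5 times. No paired analysis was possible because only 1 group has peak lists, so replicate numbers are shared with no other group analysed. Depth is unknown from the lists, shared regions other than Zfhx2's rest on 8 to 20 fragments in replicates 1 and 3, and conditions could not be compared.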
